A study of Macaca mulatta with 2 samples.

Results

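The tubulin isotypes are the products of separate genes for alpha- and beta-tubulin, and their transcripts were examined here in the optic nerve of the rhesus macaque (*Macaca mulatta*). The members were the rows of the deposited expression table whose symbol was 1 of 10 named tubulin genes. Of these 10 genes, 8 were listed among the 16684 genes of the table. They were the alpha-tubulin genes *TUBA1A*, *TUBA1B* and *TUBA4A* and the beta-tubulin genes *TUBB*, *TUBB2B*, *TUBB4A*, *TUBB4B* and *TUBB6*. *TUBB2A* and *TUBB3*, the latter a beta-tubulin used as a neuronal marker, were not analysed here.

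The study asked, in this series, which genes of a lipid mediator pathway the primate optic nerve expresses. Total RNA from untreated, wild-type optic nerves collected after death was sequenced in bulk, in 1 condition with 2 libraries named Rep1 and Rep2. According to the methods of the paper the nerves came from 1 adult male, but the series' own description speaks of 2 animals, and it is therefore unclear whether Rep1 and Rep2 come from separate animals. Values were in TPM, a measure of transcripts corrected for gene length that sums to 1000000 in each library, so levels can be compared between genes. With 1 condition there was no contrast to test. The smallest p that an exact two-sided sign test could give here is 0.5, and all differences below are the spread between replicates.

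Alpha- and beta-tubulin pair into a heterodimer, and these dimers assemble into the microtubules that carry transport along axons and through the processes of glia. The body of the protein is nearly the same in all isotypes of a class, whereas the acidic C-terminal tail, which lies on the outside of the microtubule, differs between isotypes and is where many enzymes modify tubulin. In an optic nerve the axons belong to retinal ganglion cells, whose cell bodies and nuclei lie in the retina, and the nuclei of the nerve itself are those of oligodendrocytes, astrocytes, microglia, vessel cells and fibroblasts of the sheaths. *TUBB4A* is known for its high expression in oligodendrocytes and for its mutation in hypomyelinating leukodystrophy. *TUBA1A* is known as an alpha-tubulin of postmitotic neurons, *TUBA1B* and *TUBB* as widely expressed isotypes, and *TUBB2B* as a beta-tubulin of the developing brain.

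The libraries differed before any tubulin was considered. The depth is unknown from TPM alone, but the ratios of the values showed that 1 read in Rep1 was worth as much TPM as 17.2 reads in Rep2, so Rep1 was the shallower library. Rep1 listed 6425 genes at 0 and Rep2 listed 2082. Oligodendrocyte markers were abundant in both, at a summed 46003 TPM in Rep1 and 212271 in Rep2. All 8 of them were at least 2-fold higher in Rep2, beside 51.3% of all genes above 0 in at least 1 library. The 12 photoreceptor markers, led by *GNAT1*, summed to 4139 TPM in Rep1 and 11.4 in Rep2, although no photoreceptor belongs to the nerve. Scaling by the median of ratios, which sets the typical gene above 0 in both libraries equal, raised Rep1 against Rep2 and moved the median difference of all 14693 genes above 0 in at least 1 library from -1.07 to -0.38 on the log2 scale.

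The ends of the beta-tubulin coding sequences, which encode the C-terminal tails, are shown first because the isotypes differ most there. Each is the last 66 bases before the stop codon, that is 22 codons, read from the Mmul_10 reference genome and its RefSeq annotation on the coding strand. Capitals mark bases that differ from *TUBB4A*, or have no counterpart in it, in an alignment of the whole coding sequences. Bases of *TUBB4A* that a member lacks are not marked. They lie at chr19:6429488-6429553 on the minus strand for *TUBB4A*, at chr15:963095-963160 on the minus strand for *TUBB4B*, at chr4:139187166-139187231 on the minus strand for *TUBB*, at chr4:166914843-166914908 on the plus strand for *TUBB2B*, and at chr18:73000538-73000603 on the plus strand for *TUBB6*.
TUBB4A: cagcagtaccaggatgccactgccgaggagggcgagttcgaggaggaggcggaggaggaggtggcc
TUBB4B: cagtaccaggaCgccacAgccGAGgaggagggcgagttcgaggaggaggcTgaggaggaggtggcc
TUBB: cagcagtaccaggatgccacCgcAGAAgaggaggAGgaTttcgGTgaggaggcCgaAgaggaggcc
TUBB2B: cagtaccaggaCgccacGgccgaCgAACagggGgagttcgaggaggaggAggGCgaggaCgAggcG
TUBB6: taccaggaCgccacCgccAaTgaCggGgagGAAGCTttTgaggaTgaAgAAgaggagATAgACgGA

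Against *TUBB4A*, the end of *TUBB4B* had 6 marked bases, that of *TUBB* 12, that of *TUBB2B* 13 and that of *TUBB6* 24. These counts include inserted bases and leave out bases of *TUBB4A* that a member lacks. Acidic residues were encoded by 10 of the 22 codons in *TUBB4A* and by 11 in the other beta members, so the tails differed in sequence and hardly in their acidic content. Over the last 20 residues the translated beta members shared 30% to 90.5% of positions in 10 pairs, with a median of 61.9%, and over the rest of the protein 92.3% to 98.4%, with a median of 96.8%. The lowest values in each range were pairs with *TUBB6*, and the pair *TUBB4A* and *TUBB4B* had the highest identity in both stretches. *TUBA1A* and *TUBA1B* shared 98.5% of their coding bases and 99.6% of their residues, the closest pair of all members. Alpha and beta members shared 39.6% to 41.4% of residues.

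Near-identical sequence bears on how a read can be assigned to an isotype. All windows of 100 bases along each member's transcript were searched for an identical copy elsewhere in the Mmul_10 genome or in the transcripts of another gene. Such a copy was found for 54.2% of the windows of *TUBA1A* and 56.7% of those of *TUBA1B*. These 2 genes shared 731 windows with each other, 46.8% of those of *TUBA1A* and 47.9% of those of *TUBA1B*. Both also shared windows, 16.8% and 18.5%, with *LOC710110*, an alpha-tubulin gene that resembles *TUBA1C*. In *TUBB2B* 26.5% of the windows had a copy, mostly in *LOC722929*, a gene that resembles *TUBB2A* and shares 97.7% of its coding bases. The other 5 members ranged from 0% in *TUBB6* to 2.5% in *TUBB4B*. How the authors treated reads with several alignments is not given in the sources used here. The split of reads between *TUBA1A* and *TUBA1B*, their summed level, and the level of *TUBB2B* are therefore uncertain. The alpha sum, the share of *TUBA4A* and the ratio of alpha to beta given below rest on that summed level.

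**Figure D1:**
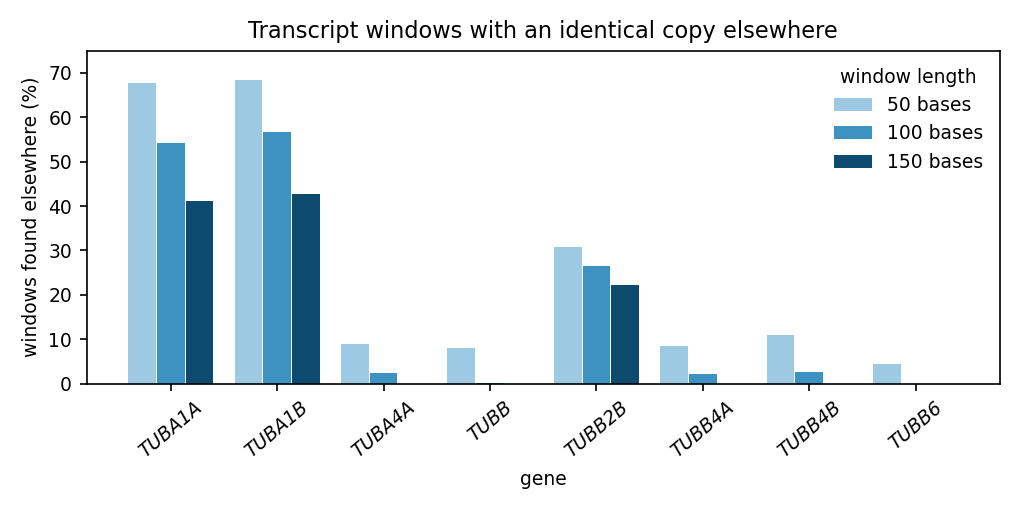
Percent of transcript windows of 50, 100 or 150 bases with an identical copy elsewhere in the genome or another gene's transcripts, for the 8 tubulin genes. At 150 bases *TUBA1A* (41.1%), *TUBA1B* (42.7%) and *TUBB2B* (22.1%) still had copies, and the other 5 genes had none.

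Among the alpha-tubulins, *TUBA1B* and *TUBA1A* were among the most abundant transcripts of the nerve. *TUBA1B* (chromosome 11, 48734905 to 48738510, minus strand) stood at 7070.5 TPM in Rep1 and 1624 in Rep2, a mean of 4347 ± 3851 TPM (SD, n = 2). *TUBA1A* (chromosome 11, 48791561 to 48797628, minus strand) stood at 5915 TPM in Rep1 and 2297 in Rep2, a mean of 4106 ± 2559 TPM (SD, n = 2). Both lay at the 99.9th percentile of the 14693 genes above 0, and both were higher in Rep1. In Rep1 *TUBA1B* stood at 1.2 times *TUBA1A*, and in Rep2 it stood at 0.707 of *TUBA1A*, so the libraries did not give the same leading gene.

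*TUBA4A* (chromosome 12, 106687297 to 106692318, minus strand), an alpha-tubulin known from brain, muscle and platelets, was far lower. It stood at 191 TPM in Rep1 and 39.3 in Rep2, a mean of 115 ± 107 TPM (SD, n = 2), at the 90.4th percentile. It was higher in Rep1, like the other alpha members. Of 5 platelet markers 4 were listed, with *GP9* and *GP1BA* at 0 in both libraries and a sum of 1.38 TPM in Rep1 and 2.29 in Rep2.

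Among the beta-tubulins, *TUBB4A* (chromosome 19, 6428622 to 6436305, minus strand) was the highest in both libraries. It stood at 168 TPM in Rep1 and 1277 in Rep2, a mean of 722 ± 784 TPM (SD, n = 2), at the 98.8th percentile. *TUBB6* (chromosome 18, 72982952 to 73001059, plus strand), the beta isotype whose sequence stood farthest from the others, was the second beta member by mean and in Rep2 but lay below *TUBB4B* and *TUBB* in Rep1, at 40.5 TPM in Rep1 and 382 in Rep2, a mean of 211 ± 242 TPM (SD, n = 2). Both were higher in Rep2 by the widest margins of the 8 members, 7.61 times for *TUBB4A* and 9.43 times for *TUBB6*.

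*TUBB4B* (chromosome 15, 962868 to 977698, minus strand), a widely expressed isotype also found in cilia, stood at 57.6 TPM in Rep1 and 127 in Rep2, a mean of 92.5 ± 49.4 TPM (SD, n = 2). Its locus overlaps *FAM166A* on the opposite strand and *SLC34A3* on the same strand, so reads there may not be its own. *TUBB* (chromosome 4, 139186115 to 139191108, minus strand) differed least between the libraries on the deposited scale, though not under the median of ratios, at 57.0 TPM in Rep1 and 76.9 in Rep2, a mean of 66.9 ± 14.1 TPM (SD, n = 2). *TUBB2B* (chromosome 4, 166910742 to 166915392, plus strand) was the lowest member by mean, at 15.5 TPM in Rep1 and 54.8 in Rep2, a mean of 35.2 ± 27.8 TPM (SD, n = 2). All 5 beta members were higher in Rep2 on the deposited scale, and *TUBB4B* and *TUBB* were not under median-of-ratios scaling. On the deposited scale 51.3% of the 14693 genes above 0 were at least 2-fold higher in Rep2, and the median difference was -1.07.

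The number of reads behind these values differed between members. The smallest whole read numbers that give the ratio of a gene's values are lower bounds, and they were at least 5666 reads in Rep1 and 37803 in Rep2 for *TUBA1A* and at least 2998 and 11831 for *TUBA1B*. In Rep1 they were at least 149 for *TUBA4A*, 107 for *TUBB4B*, 77 for *TUBB*, 48 for *TUBB4A* and 31 for *TUBB2B*. The bound for *TUBB6*, 1 read in Rep1 and 162 in Rep2, says little, because any common multiple of these numbers gives the same ratio. No confidence interval per gene can be given without the full read numbers.

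**Figure D2:**
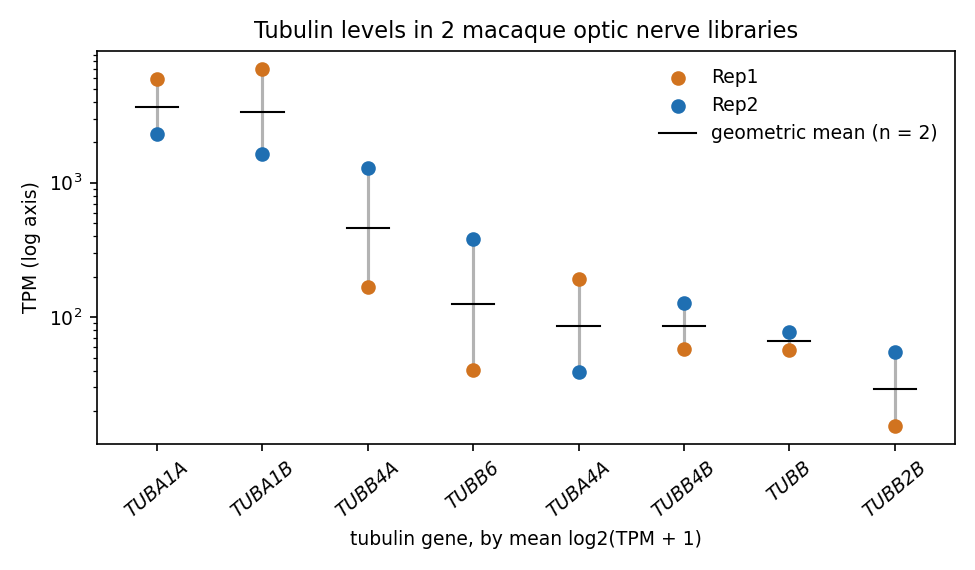
TPM of the 8 tubulin genes in Rep1 (orange) and Rep2 (blue) on a log axis, ordered by mean log2(TPM + 1), with the geometric mean of the 2 libraries as a black bar. The alpha genes *TUBA1A*, *TUBA1B* and *TUBA4A* lie higher in Rep1 and the 5 beta genes higher in Rep2 on the deposited scale, and *TUBB4B* and *TUBB* change sides under the median of ratios. Of all genes above 0, 14.8% were at least 2-fold higher in Rep1 and 51.3% in Rep2 on the deposited scale.

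Ordered by the mean of log2(TPM + 1), the members ran from *TUBA1A* through *TUBA1B*, *TUBB4A*, *TUBB6*, *TUBA4A*, *TUBB4B* and *TUBB* to *TUBB2B*. The spread of a single library was estimated, for each member, from how far Rep1 and Rep2 lay apart in the 200 genes closest to it in mean level, and was 1.61 to 1.84 on the log2 scale for these genes. Only the step from *TUBA1B* to *TUBB4A*, 2.87 or 1.57 SDs, and the step from *TUBB4A* to *TUBB6*, 1.88 or 1.07 SDs, exceeded that spread. The other 5 of the 7 neighbouring pairs lay closer than 1 SD, from 0.011 SDs between *TUBA4A* and *TUBB4B* to 0.704 SDs between *TUBB* and *TUBB2B*, so their order was not resolved.

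Of the 28 pairs of members, 20 stood in the same order in both libraries. The 8 pairs that changed order were *TUBA1A* with *TUBA1B*, *TUBA4A* with each of the 5 beta members, and *TUBB6* with *TUBB* and with *TUBB4B*. *TUBA4A* was the third highest member in Rep1 and the lowest in Rep2. *TUBA1A*, *TUBA1B* and *TUBB4A* exceeded *TUBB*, *TUBB2B*, *TUBB4B* and *TUBB6* in each library.

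Shares within a class do not depend on the scale of a library. *TUBA1A* made up 44.9% of the summed alpha-tubulin TPM in Rep1 and 58.0% in Rep2, a mean of 51.4% ± 9.27 (SD, n = 2). *TUBA1B* made up 53.7% and 41.0%, a mean of 47.3% ± 8.95 (SD, n = 2). Their means differed by less than the spread between the libraries. *TUBA4A* contributed 1.45% and 0.991%, so *TUBA1A* and *TUBA1B* made up nearly all of the TPM of the 3 listed members in each library.

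In the beta class *TUBB4A* made up 49.6% of the summed TPM in Rep1 and 66.6% in Rep2, a mean of 58.1% ± 12 (SD, n = 2). *TUBB6* made up 12% and 19.9%. *TUBB4B* made up 17.0% and 6.64%, *TUBB* 16.8% and 4.01%, and *TUBB2B* 4.59% and 2.86%. *TUBB4A* was therefore the leading beta isotype in both libraries among the 5 listed, while the second place went to *TUBB4B* in Rep1 and to *TUBB6* in Rep2. The share of *TUBB4A* and *TUBB6* was higher in Rep2, and that of *TUBB*, *TUBB4B* and *TUBB2B* was higher in Rep1. These shares leave out the isotypes not analysed here.

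**Figure D3:**
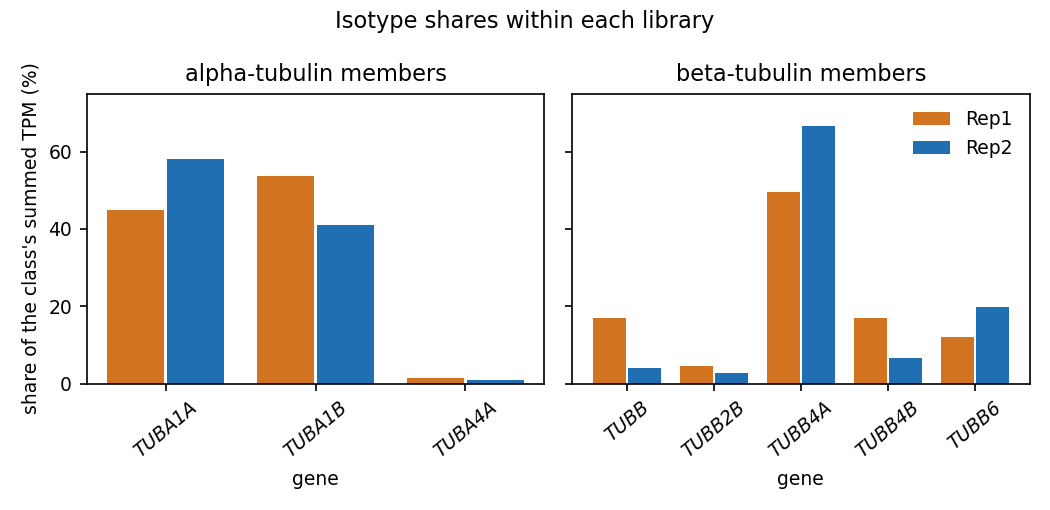
Share of each gene in the summed TPM of the 3 alpha-tubulin or 5 beta-tubulin members, in percent, in Rep1 (orange bars) and Rep2 (blue bars). *TUBA1A* and *TUBA1B* trade the lead between the libraries, and *TUBB4A* leads the beta class in both, at 49.6% and 66.6%.

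The 8 members together took 13515 TPM in Rep1 and 5878 in Rep2, which is 1.35% and 0.588% of all TPM. The 3 alpha members summed to 13176 TPM and 3959.8 TPM, and the 5 beta members to 338 TPM and 1918 TPM. The ratio of alpha to beta was 38.9 in Rep1 and 2.06 in Rep2, and, as a ratio within a library, it does not move with the scale. Since the classes pair in equal numbers as proteins, the ratio of listed transcripts is given here as a measured value only. Both sums lack genes not analysed here, *TUBB2A* and *TUBB3* in the beta sum and *TUBA1C*, *TUBA3C* and *TUBA3D* in the alpha sum. *TUBA1A* and *TUBA1B* together stood at 12986 TPM in Rep1 and 3921 in Rep2, a sum that sequence shared with other genes makes uncertain. *TUBB4A* stood at 0.384% of *MBP*, the transcript of myelin basic protein, in Rep1 and at 0.640% in Rep2.

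All 3 alpha members were at least 2-fold higher in Rep1 on the log2(TPM + 1) scale, against 14.8% of the 14693 genes above 0. *TUBA4A* differed by 2.25, *TUBA1B* by 2.12 and *TUBA1A* by 1.36, Rep1 minus Rep2. With the median of ratios the 3 genes were again at least 2-fold higher in Rep1, against 23.7% of genes, with differences of 3.42, 3.31 and 2.56. The 200 genes closest to *TUBA1A* and *TUBA1B* in mean level were often higher in Rep1, with a median difference of 1.35. Most of them were less abundant, since both genes stood at the 99.9th percentile. For *TUBA1A* 99 of the 200 genes had a larger difference and 101 a smaller one, so *TUBA1A* lay in the middle of that set. For *TUBA1B* 73 of the 200 had a larger difference and 127 a smaller one. Around *TUBA4A* the median was -0.41, and 36 of the 200 genes had a larger difference.

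Of the 5 beta members, 4 were at least 2-fold higher in Rep2, against 51.3% of all genes. *TUBB6* fell by 3.21 from Rep2 to Rep1 on the log2 scale, *TUBB4A* by 2.92, *TUBB2B* by 1.76 and *TUBB4B* by 1.13, while the value of *TUBB*, -0.43, stayed under the fold. With the median of ratios 2 of the 5, *TUBB4A* and *TUBB6*, were still past this fold in Rep2, against 33.8% of genes, at -1.73 and -2.03. *TUBB2B* was then at -0.61, *TUBB4B* at 0.044 and *TUBB* at 0.75. The call for *TUBB2B* and *TUBB4B* thus rested on the scale, and the differences of *TUBB4A* and *TUBB6* were past the fold on both. Of the 200 genes nearest in level to *TUBB4A* 11 lay lower, with a median of 1.16, and of those nearest to *TUBB6* 4 lay lower, with a median of 0.52.

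Many cell type markers also differed between the libraries, and the median difference of all genes was -1.07. Oligodendrocyte markers were lower in Rep1 with a median difference of -2.36, astrocyte markers summed to 1098 TPM in Rep1 and 7321 in Rep2 with a median of -2.53, and the 7 fibroblast markers, led by *DCN* and *COL1A2*, summed to 1772 TPM and 16022 TPM with a median of -2.93. *TUBB4A*, at -2.92, and *TUBB6*, at -3.21, lay beside these medians. *TUBB2B*, *TUBB4B* and *TUBB* differed by less, at -1.76, -1.13 and -0.43, and the 3 alpha members went the other way, at 1.36 to 2.25. The median differences of microglial and of endothelial and mural markers were -2.47 and -2.15. Under the median of ratios the medians were smaller. They stood at -1.17 for oligodendrocyte, -1.40 for astrocyte, -1.74 for fibroblast, -1.30 for microglial and -0.97 for endothelial and mural markers. *TUBB4A* was then at -1.73, *TUBB6* at -2.03 and the median of all genes at -0.38.

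In the other direction, 8 neuronal markers summed to 1935 TPM in Rep1 and 49.8 in Rep2, and *SNAP25* and *SYT1*, proteins of synaptic release, made up nearly all of the sum in Rep1. Of the 8, 3 were at least 2-fold higher in Rep1, beside 14.8% of all genes, and none in Rep2, beside 51.3%. Their median was 0.60, and the neurofilament genes *NEFL*, *NEFM* and *NEFH*, chosen after their values were seen, stood at -0.01, -0.99 and 0.94. Under the median of ratios these 3 stood at 0.93, 0.09 and 1.72. With the median of ratios 5 of the 8 were higher in Rep1, beside 23.7%, and none in Rep2, beside 33.8%. Photoreceptor markers had a median difference of 2.69, and 7 of the 12 were at least 2-fold higher in Rep1, beside 14.8% of all genes, and none in Rep2. With the median of ratios 10 of the 12 were higher in Rep1, beside 23.7%. Of the 6 markers of retinal ganglion cells, *POU4F2* and *SLC17A6* were at 0 in both libraries, and the sum of all 6 was 377 TPM in Rep1 and 1720 in Rep2, mostly *THY1* and *RBPMS*, of which other cells also express both. The part of other tissue, of cell composition and of depth in the alpha and beta differences was not tested. In bulk RNA, fewer cells of a type and less RNA per cell cannot be told apart.

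**Figure D4:**
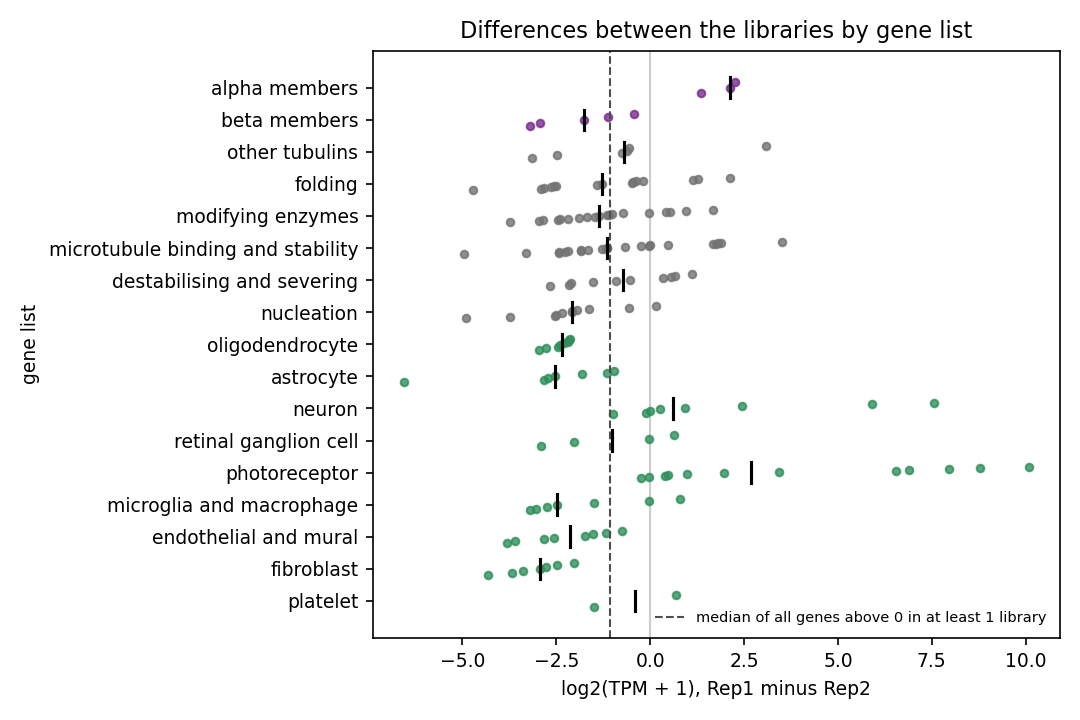
Difference in log2(TPM + 1), Rep1 minus Rep2, for each gene above 0 in at least 1 library, by list, with the list's median as a black tick and the median of all such genes (-1.07) as a dashed line. On the deposited scale the 3 alpha members lie from 1.36 to 2.25 and the 5 beta members from -3.21 to -0.43, with *TUBB4B* and *TUBB* above 0 under the median of ratios, and photoreceptor markers reach 10.1 while oligodendrocyte, astrocyte and fibroblast markers all lie below 0.

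The listed genes whose pair of values lay nearest to *TUBA1B*, by the distance in log2(TPM + 1) over the 2 libraries, were *CKB*, the brain-type creatine kinase, at 0.55, *TUBA1A* at 0.56, and *CALM2*, a calmodulin gene, at 0.75. *CKB* stood at 4832 TPM in Rep1 and 1684 in Rep2. Those nearest to *TUBB4A* were *MFAP4*, a matrix protein, at 0.11, *APOD*, an apolipoprotein of glia and fibroblasts, at 0.16, and *CD63*, a tetraspanin of late endosomes, at 0.20. With 2 libraries, likeness means a like level and a like difference only.

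Of 12 other tubulin genes, 8 were listed, and apart from gamma-tubulin they were low. *TUBG1*, the gamma-tubulin that nucleates microtubules, stood at 177 TPM in Rep1 and 19.8 in Rep2, a difference of 3.10. It was the only 1 of the 8 at least 2-fold higher in Rep1, beside 14.8% of all genes, and 2 were in Rep2, beside 51.3%. The centriolar tubulins *TUBD1* (1.92 and 15.3 TPM) and *TUBE1* (listed at 0 in Rep1 and at 7.84 TPM in Rep2) were at least 2-fold higher in Rep2. *TUBA8* stood at 0.651 and 1.78 TPM. *TUBB1*, the beta-tubulin of platelets and megakaryocytes, and *TUBA3E* were at 0 in Rep1 and at 0.543 and 0.485 TPM in Rep2. *TUBAL3* and *TUBB8* were listed at 0 in both libraries. Counting the listed alpha and beta genes outside the members left the mean share of *TUBB4A* at 58.1%, while *TUBA1C*, *TUBA3C* and *TUBA3D* were not analysed here.

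Folding factors, which bring newly made tubulin into the dimer, were all listed, and 3 of 15 were at least 2-fold higher in Rep1 and 8 in Rep2, shares near the 14.8% and 51.3% of all genes. With the median of ratios the counts were 3 and 6, beside 23.7% and 33.8% of all genes. On the deposited scale the median difference of the folding factors was -1.29, beside -1.07 for all genes. *TBCB*, a tubulin cofactor, stood at 76.4 TPM in Rep1 and 478 in Rep2, and *ARL2*, a small GTPase that acts with the cofactors, at 46.2 and 355 TPM. *TBCD*, the beta-tubulin cofactor, was listed at 0 in Rep1 and at 25.3 TPM in Rep2. The prefoldin subunits *PFDN2* (309 and 127 TPM) and *VBP1* (198 and 44.8 TPM) were higher in Rep1.

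Of 22 enzymes that modify tubulin, 19 were listed, of which 1 was at least 2-fold higher in Rep1 and 13 in Rep2, with a median of -1.35, beside 14.8% and 51.3% of all genes. With the median of ratios 3 were higher in Rep1 and 7 in Rep2, beside 23.7% and 33.8% of all genes. *SIRT2*, a tubulin deacetylase abundant in oligodendrocytes, was the highest, at 85.2 TPM in Rep1 and 473 in Rep2. *VASH1*, which removes the terminal tyrosine of alpha-tubulin, stood at 13.5 and 105 TPM. *TTL*, the ligase that restores that tyrosine, stood at 1.13 and 10.4 TPM, a value given here for its role at the C-terminus and chosen after it was seen. The polyglutamylases *TTLL5* and *TTLL4* were at 43.2 and 21.9 TPM and at 0 and 12.4 TPM, and *AGBL5*, a deglutamylase, at 27.4 and 7.93 TPM.

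Microtubule-binding and stabilising proteins were all listed, and 5 of 23 were at least 2-fold higher in Rep1 and 13 in Rep2, with a median of -1.15, beside 14.8% and 51.3% of all genes. Under the median of ratios these counts were 6 and 6, beside 23.7% and 33.8% of all genes. *TPPP3*, of the tubulin polymerisation promoting family, stood at 164 TPM in Rep1 and 881 in Rep2, and *MAP1B*, a protein of axonal microtubules, at 119.9 and 431 TPM. The end-binding proteins *MAPRE2* (148 and 329 TPM) and *MAPRE3* (173 and 14.3 TPM) differed in opposite directions, and *MAP1S* was listed at 0 in Rep1 and at 30.2 TPM in Rep2.

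Of 10 destabilising and severing proteins, 1 was at least 2-fold higher in Rep1 and 4 in Rep2, with a median of -0.73, beside 14.8% and 51.3% of all genes. Under the median of ratios 4 were higher in Rep1 and 3 in Rep2, beside 23.7% and 33.8% of all genes. *STMN1*, which binds free tubulin dimers, stood at 106 TPM in Rep1 and 675 in Rep2, and the related *STMN4* at 94.8 and 274 TPM. *STMN2*, a stathmin of neurons, stood at 21.0 and 9.14 TPM.

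Of 11 nucleation proteins, 9 were at least 2-fold higher in Rep2, beside 51.3% of all genes, and none in Rep1, beside 14.8%. Their median was -2.08. With the median of ratios 6 were higher in Rep2 and 1 in Rep1, beside 33.8% and 23.7% of all genes. *MZT2B*, a part of the gamma-tubulin ring complex, stood at 125 TPM in Rep1 and 529 in Rep2, and the centrosomal *CDK5RAP2* and *PCNT* at 18.5 and 59.5 TPM and at 8.18 and 37.9 TPM. *NEDD1*, which anchors the ring complex, was listed at 0 in Rep1 and at 29.1 TPM in Rep2, while *TUBGCP4* stood at 15.4 and 13.8 TPM. Under median-of-ratios scaling the medians were -1.30 for nucleation, -0.57 for the modifying enzymes, -0.15 for folding, -0.02 for binding and stability, -0.42 for the other tubulins and 0.25 for the destabilising proteins, whose sign turned, beside -0.38 for all genes.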

How the data were processed

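Bulk RNA-seq of 2 libraries of macaque optic nerve was used. Library preparation was by the authors with an ultra-low input SMARTer kit, and per the submitters' processing notes used FastQC 0.11.9, Trim Galore 0.6.6, STAR 2.7.1a and featureCounts 1.5.3 with the Mmul_10 genome. The deposited values are TPM, which the authors computed from read counts divided by gene length. The gene lengths, the use of strand and the treatment of reads with several alignments are not given in the sources used here. Nothing pairs the columns Rep1 and Rep2 with the sample titles.

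The tools were Biopython 1.88, matplotlib 3.10.9, pandas 2.3.3, numpy 2.4.6 and Python 3.11. Differences were log2(TPM + 1) of Rep1 minus Rep2, which understates the change of low genes, and a gene was counted as higher in a library at a 2-fold difference on that scale. No p-value was computed. Read numbers came from whole-number ratios (tolerance 1e-12) for 10167 of the 10168 genes above 0 in both libraries. The largest product of read numbers, 1e+09, was set after a lower limit gave no value for *TUBA1A*. The methods were tested on simulated data.

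Coding sequences were taken from the curated transcript, or else from the transcript nearest to the curated ones in coding length, a rule set after the longest model of *TUBA4A* proved to be an extended prediction. Identity is over a global alignment. The window search was added after the data were seen, and genes overlapping a member's own locus were left out of it. *TUBB3* has no row in the table used, so its planned share was not computed.

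The members and the lists were chosen with earlier results of these data known. Named were all members and other listed tubulins, the 3 most abundant genes of each microtubule list and, of those whose mean reached 1 TPM, the 1 gene with the largest difference in each direction, the 3 genes nearest to the leading alpha and beta members, and the 2 most abundant markers of a type with those at 0. Some of the genes and sequences so chosen are not reported here. As alternatives served median-of-ratios scaling, a pseudocount of 0.1, TPM without the 10 most abundant genes, the geometric mean, the 500 nearest genes, other denominators and each library alone.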

Additional observations from a re-analysis of the deposited data

How the results depend on the processing

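Scaling by the median of ratios reduced the members at least 2-fold higher in Rep2 from 4 to 2 and turned *TUBB4B* from -1.13 to 0.044. It also turned the sign of 2 values that lay under 2-fold, that of *TUBB* from -0.43 to 0.75 and the median of the destabilising proteins from -0.73 to 0.25, both by less than the spread between the libraries. A pseudocount of 0.1 moved the median difference of the other tubulin genes to -2.62, where 3 of the 6 above 0 in any library were at 0 in Rep1. Apart from single libraries, 29 summary values and 46 values of single members moved by less than the spread between the libraries. For counts the limit was a change of 1.5 times. The 2 values under 2-fold whose sign turned were among them. The mean of *TUBB*, 84.7 TPM without the 10 most abundant genes, moved by more. The spread itself was wide, with an SD of 5400 TPM beside a mean of 9696 for the summed members. Moving by less than this spread therefore says little about stability. The geometric mean and the share of the summed TPM could not move by more. With 2 libraries each lies between the 2 single values, and so within 1 SD of their mean. The share of *TUBB4A* entered the summary values under 2 headings, by name and as the leading beta isotype. The count of members higher in Rep1 and the counts without the 10 most abundant genes were chosen after seeing the data. Rep2 alone gave 5878 TPM for the summed members, 41.0% for the share of *TUBA1B* in the alpha class, and 66.6% for *TUBB4A* in the beta class. Rep1 alone gave 13515 TPM, 53.7% and 49.6%. With 2 libraries, leaving out 1 says nothing about stability. No paired analysis was possible because the series holds 1 condition. The depth is unknown in absolute terms, and precision is limited by 2 libraries and by the lower depth of Rep1.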
